A study of Mus musculus with 2 samples.

Results

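The genes described here are 9 members of the system that cuts the extracellular matrix: the matrix metalloproteinase genes Mmp2, Mmp3, Mmp14, Mmp19 and Mmp23, and the genes of their tissue inhibitors Timp1, Timp2, Timp3 and Timp4. They were chosen by symbol and are 9 of 32285 features counted in single cells of whole mouse aorta. The Cept1 library came from mice that, per the labels, overexpress Cept1, an enzyme of phospholipid synthesis, in endothelial cells. They were male C57BL6 mice labelled Cept1fl/fl Cre+, which carry VE-cadherin-Cre-ERT2, a Cre recombinase driven by the promoter of an endothelial adhesion molecule and switched on by tamoxifen. The control library came from male C57BL6 littermates labelled Cept1fl/fl Cre-, so the Cept1fl/fl allele was shared by both groups and Cre was not. Tamoxifen, 1 mg on each of 5 days, was injected at 8 weeks of age or later with 5 days of recovery, per the protocols, while the age label reads 6 to 8 weeks. Aortic tissue of 3 mice per condition, from arch to bifurcation, was digested with collagenases, hyaluronidase and DNase before 10x Genomics 3′ v3 capture, and pooling of the mice is a point not given in the sources used here.

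Metalloproteinases are zinc enzymes that are made as inactive precursors and together degrade collagens, elastin, proteoglycans and many signalling proteins. TIMP proteins bind the active site of the enzymes and block it, and each inhibitor covers many of them. In the vessel wall this balance governs how matrix is remodelled by adventitial fibroblasts, smooth muscle cells, endothelial cells and macrophages.

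Each group held 1 library, so no difference between them was tested, none has a replicate check, and every interval covers counting error only. The Cept1 library held 95735360 unique molecular identifiers (UMIs, each standing for 1 captured RNA molecule) and the control library 88220524, and 11168 and 8729 cells passed the filters with medians of 6438.5 and 6735 UMIs. Cells were placed in a class when at least 4 of 8 marker genes of that class were detected and every other marker list stayed at 2 or fewer. The fibroblast class held 4583 cells in the Cept1 library against 3160 in the control, smooth muscle 520 and 388, endothelial 999 and 425, and myeloid 1807 and 914. Markers kept out of the gate were at their highest in the class they belong to. The summed level of Dcn, Col1a1, Col1a2 and Col3a1 was 45928 and 39755 UMIs per 1000000 (CPM) in fibroblasts. It was 4232 and 3790 CPM in smooth muscle and 646 and 520 CPM in endothelial cells. No gate took 2821 and 2778 cells. The libraries shared 74 barcodes, 31 of them among kept cells. Cept1 itself stood at 134 CPM in endothelial cells of the Cept1 library and 84.4 CPM in those of the control library, a log2 ratio of 0.67, against log2 ratios of 0.14 in fibroblasts, 0.17 in smooth muscle and 0.26 in myeloid cells.

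Levels below are CPM, scaled to all UMIs of the class in that library, and are given first for the Cept1 library and then for the control library. Ratios are log2 of the first over the second, with 95% intervals, and a gene was counted as higher or lower when the ratio passed 1.5-fold, which is 0.58 on the log2 scale, with at least 20 UMIs in the class. T and B cells together, called lymphoid, served as the class that should lack most of these genes and so shows the level of free RNA. Levels were not compared between genes.

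The position of each gene was read from GENCODE vM21 on GRCm38. Mmp2 (ENSMUSG00000031740) lies on chromosome 8 from 92827291 to 92853420, Mmp3 (ENSMUSG00000043613) on chromosome 9 from 7445822 to 7455975, and Mmp14 (ENSMUSG00000000957) on chromosome 14 from 54431612 to 54445364. Mmp19 (ENSMUSG00000025355) lies on chromosome 10 from 128790910 to 128800824 and Mmp23 (ENSMUSG00000029061) on chromosome 4 from 155650655 to 155653384. Timp1 (ENSMUSG00000001131) lies on chromosome X from 20870166 to 20874735 and Timp2 (ENSMUSG00000017466) on chromosome 11 from 118301069 to 118355740. Timp3 (ENSMUSG00000020044) lies on chromosome 10 from 86300372 to 86349506 and Timp4 (ENSMUSG00000030317) on chromosome 6 from 115241892 to 115252205. Mmp3 has 8 other protein-coding metalloproteinase genes within 1 Mb, among them Mmp13, Mmp12, Mmp10 and Mmp8. Timp1, Timp3 and Timp4 each lie inside a synapsin gene on the opposite strand (Syn1, Syn3 and Syn2). With strand use in the counting not given in the sources used here, reads of such partners cannot be told apart for certain. Mmp19 overlaps Tmem198b and the antisense gene Gm47093 on the opposite strand, and Timp2 overlaps Cep295nl on its own strand, with the same limit.

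The RefSeq promoter table (GRCm38.p6) held 7 of the 9 genes, not Mmp2 and Mmp19. Their promoters were searched, from 250 bases before to 50 bases after the start, for the binding letters of AP-1, the Fos and Jun factor that is known to drive Mmp3 and is itself switched on by tissue dissociation. The letters searched were TGACTCA and TGAGTCA, which are each other's complement and so cover both strands. Of 8 promoters, the Mmp3 promoter alone held them, starting 46 bases before the start, and 5.20% of all 32851 promoters of that length held them. The stretch upstream of the Mmp3 start is shown because it alone held an exact match among the 8 promoters searched. Near matches of these letters were not looked for, so other sites may have been missed. Capitals mark the AP-1 letters, and the match is a description, not a bound site.
Mmp3, chr9:7445572-7445821, plus strand: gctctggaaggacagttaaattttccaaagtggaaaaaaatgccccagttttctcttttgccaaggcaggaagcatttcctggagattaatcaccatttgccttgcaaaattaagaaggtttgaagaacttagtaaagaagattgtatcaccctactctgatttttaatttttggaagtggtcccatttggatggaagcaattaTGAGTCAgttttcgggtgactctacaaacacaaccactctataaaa

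The 9 genes fell into 3 patterns of place. Fibroblasts held most UMIs of 8 of them among the classes: 99.0% and 99.6% of Mmp3, 93.8% and 97.3% of Mmp2, 94.3% and 94.02% of Mmp23, 95.1% and 97.3% of Timp1, and 84.5% and 89.8% of Mmp14 in the Cept1 and control libraries. Timp2 and Timp3 were spread more widely, with 77.2% and 85.1% of Timp2 and 66.2% and 70.1% of Timp3 UMIs in fibroblasts. Mmp19 was shared with myeloid cells, which held 26.3% and 16.01% of its UMIs. Timp4 was the exception to the fibroblast pattern: endothelial cells held 84.9% and 74.3% of its UMIs and smooth muscle 11.5% and 22.6%. These shares also move with the number of cells of each class.

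**Figure D1:**
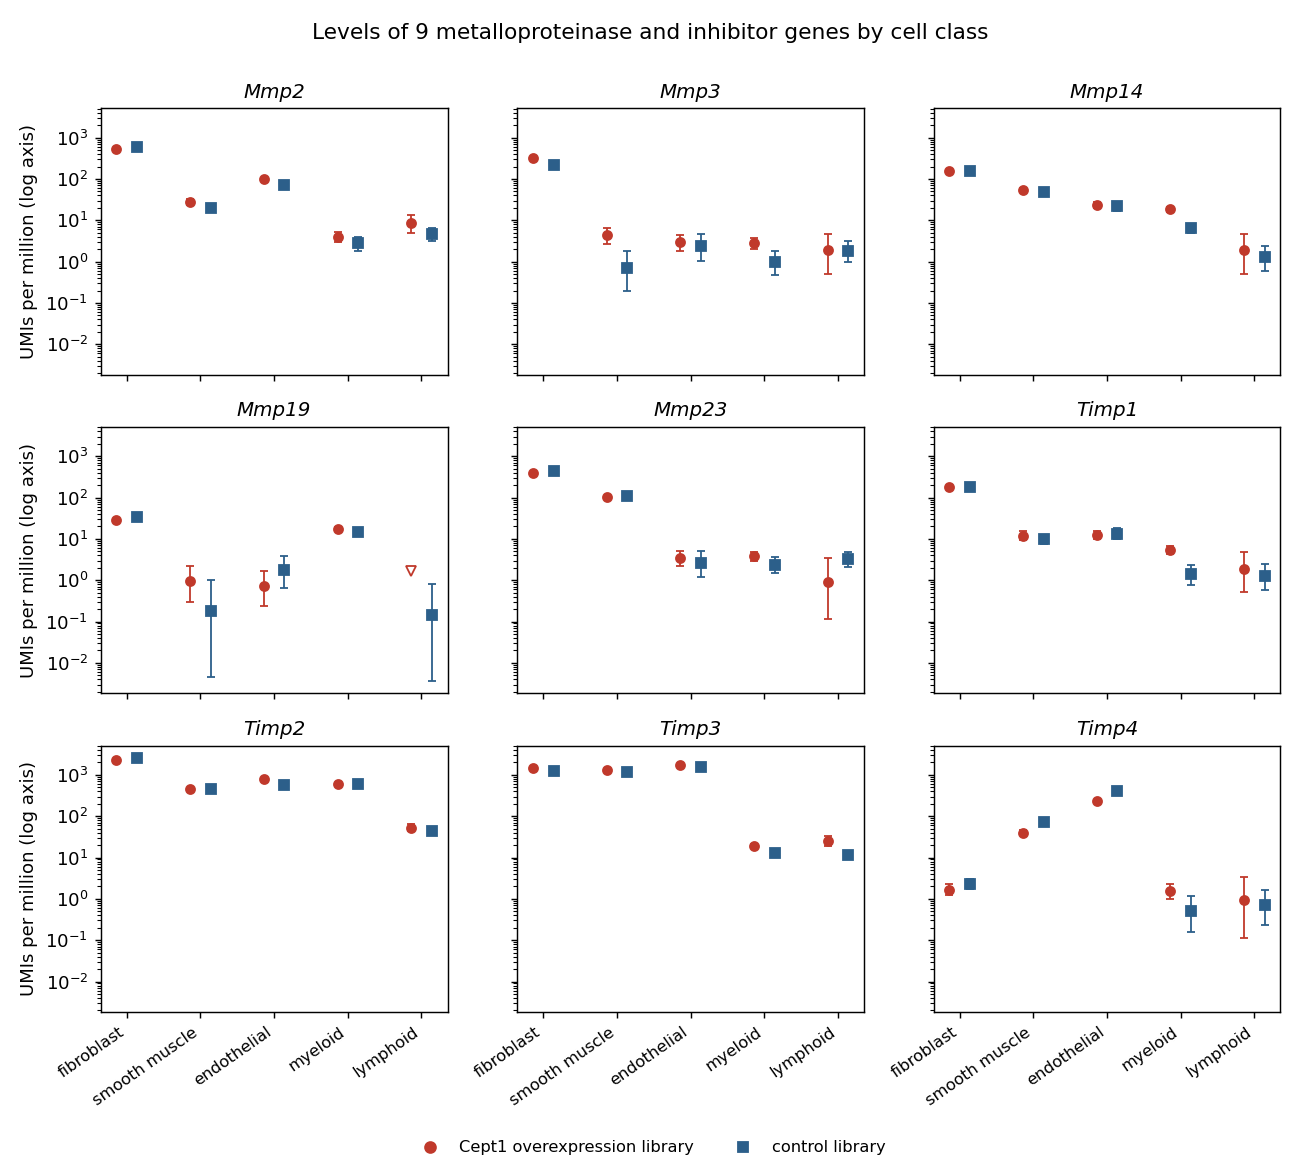
Level of each of the 9 genes (CPM, log axis) in fibroblast, smooth muscle, endothelial, myeloid and lymphoid cells; red circles are the Cept1 library, blue squares the control library, bars are exact 95% Poisson intervals, and the open triangle is the upper limit for a count of 0. Timp4 is highest in endothelial cells (227 and 400 CPM), and Mmp3 stands at 323 and 222 CPM in fibroblasts and below 5 CPM in every other class shown.

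Mmp2 encodes gelatinase A, which cuts denatured collagen and basement membrane collagen. In fibroblasts its level was 535 CPM in the Cept1 library against 589 in the control. Endothelial cells came next, with 100 and 71.1 CPM, then smooth muscle with 27.9 and 19.6 CPM. Myeloid cells, at 4.0 and 2.79 CPM, did not exceed the lymphoid level of 8.40 and 4.70 CPM. The order of the 4 classes was the same in both libraries, and their counting intervals did not overlap within a library.

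Mmp3 encodes stromelysin-1, which cuts proteoglycans and fibronectin and activates other metalloproteinase precursors. Its level was 323 and 222 CPM in fibroblasts, where 25.2% and 22.8% of cells had at least 1 UMI. It was 4.31 and 0.71 CPM in smooth muscle, 2.91 and 2.38 CPM in endothelial cells and 2.78 and 1.00 CPM in myeloid cells. All of these but the fibroblast values lie near the lymphoid level of 1.87 and 1.85 CPM, where 1.11% and 1.30% of cells had a UMI. Median depth was 4552 and 5027.5 UMIs in fibroblasts, 6274.5 and 7287 in T cells, and 4240 and 5147 in B cells.

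Mmp14 encodes a membrane-bound metalloproteinase that cuts fibrillar collagen and activates the Mmp2 precursor with Timp2 as a partner. It stood at 155 CPM in fibroblasts of both libraries, at 53.6 and 47.5 CPM in smooth muscle, at 23.8 and 21.7 CPM in endothelial cells and at 18.4 and 6.38 CPM in myeloid cells. Every class lay above the lymphoid level of 1.87 and 1.28 CPM. The counting intervals of the libraries overlapped in every class but the myeloid one.

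Mmp19 encodes a secreted metalloproteinase with basement membrane proteins among its substrates. It was found in fibroblasts, at 28.6 and 34.2 CPM, and in myeloid cells, at 17.2 and 15.1 CPM. Smooth muscle held 5 and 1 UMIs and endothelial cells 5 and 6, too few to give a ratio.

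Mmp23 encodes a small membrane-anchored member of the family. It stood at 400 and 436 CPM in fibroblasts and at 101 and 107 CPM in smooth muscle. In endothelial cells (3.49 and 2.68 CPM) and myeloid cells (3.81 and 2.39 CPM) it was near the lymphoid level of 0.93 and 3.28 CPM.

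Timp1 encodes a secreted inhibitor that is strongly inducible and inhibits Mmp14 poorly. Its fibroblast level was 178.5 CPM in the Cept1 library against 179.5 CPM in the control. Smooth muscle (11.99 and 9.79 CPM) and endothelial cells (12.5 and 13.4 CPM) did not differ from each other beyond their counting intervals. Myeloid cells had 5.42 and 1.40 CPM, against a lymphoid level of 1.87 and 1.28 CPM.

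Timp2 encodes the inhibitor that also takes part in the activation of the Mmp2 precursor. It was detected in 98.2% and 98.4% of fibroblasts and stood at 2279 and 2589.6 CPM there. Its level was 463 and 454 CPM in smooth muscle, 783 and 585 CPM in endothelial cells and 608 and 589 CPM in myeloid cells. Endothelial and myeloid cells of the control library did not differ beyond their counting intervals. The lymphoid level was 52.7 and 42.7 CPM.

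Timp3 encodes the inhibitor that binds to the matrix and covers several ADAM and ADAMTS proteases as well. Its level was 1465 and 1222 CPM in fibroblasts, 1320.1 and 1199.6 CPM in smooth muscle and 1726 and 1522 CPM in endothelial cells. In the control library the fibroblast and smooth muscle intervals overlapped. Myeloid cells, at 18.8 and 12.7 CPM, were at the lymphoid level of 24.7 and 11.4 CPM.

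Timp4 encodes the inhibitor with the most restricted expression of the family. It stood at 227 and 400 CPM in endothelial cells, 39.7 and 72.8 CPM in smooth muscle, 1.67 and 2.27 CPM in fibroblasts and 1.55 and 0.50 CPM in myeloid cells. The lymphoid level was 0.93 and 0.71 CPM, so fibroblast and myeloid values were close to it. Over 24 profiles (subclass or class by library, each with at least 50 cells), log2(CPM + 1) of Timp4 correlated with that of Mmp19 at r = -0.48 and with that of Timp3 at 0.54, while Mmp2, Mmp3 and Timp1 correlated with each other at 0.88 to 0.90. These profiles share libraries and depth, and the coefficients are descriptions.

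By the same measure over 13478 genes, the genes most like Mmp23 were Col6a2, Col6a1 and Loxl1 (r = 0.98, 0.97 and 0.97). Those most like Timp3 were Hspg2, Nfib and Npr2 (0.99, 0.98 and 0.98), and those most like Mmp2 were Serping1, Srpx2 and Mfap2 (0.96, 0.95 and 0.95). Mmp3 was most like Fbln1, which is a marker of the fibroblast gate (0.98), Folh1 and Gm12022. Timp4 was most like Kcna5 (0.93), Ccdc85a and Vwa3a. Mmp14 was most like Vcan (0.92), which is a marker of the monocyte subclass. Mmp19 was most like Zfp385a (0.89), Timp1 like Naalad2 (0.92, with Serping1 at 0.91) and Timp2 like Dennd2a (0.92).

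In fibroblasts, 0 of the 9 genes passed 1.5-fold between the libraries, where 10.5% of 15251 measured genes did (4.1% higher and 6.43% lower). That share also depends on the UMI count. It was 3.65% of 12121 genes at a minimum of 100 UMIs, which all members but Timp4 reached. Mmp3 came closest, with 8289 UMIs in the Cept1 library against 5095 in the control and a log2 ratio of 0.54 (0.49 to 0.59). Timp3 had 0.26 (0.24 to 0.28). Timp2 had -0.18 (-0.20 to -0.17), Mmp2 -0.14 (-0.17 to -0.11), Mmp23 -0.12 (-0.16 to -0.08) and Mmp19 -0.26 (-0.40 to -0.11). The intervals of these 6 genes stayed on one side of 0. Mmp14 (0.00, -0.06 to 0.07) and Timp1 (-0.01, -0.07 to 0.05) did not differ beyond counting error, and neither did Timp4 with 43 and 52 UMIs (-0.44, -1.06 to 0.17). For Timp1, 1 cell of the Cept1 library held 595 of the 4587 UMIs, and with the top cell of each library left out the ratio was -0.18. The median over the 9 genes was -0.12, beside -0.04 over all measured genes.

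**Figure D2:**
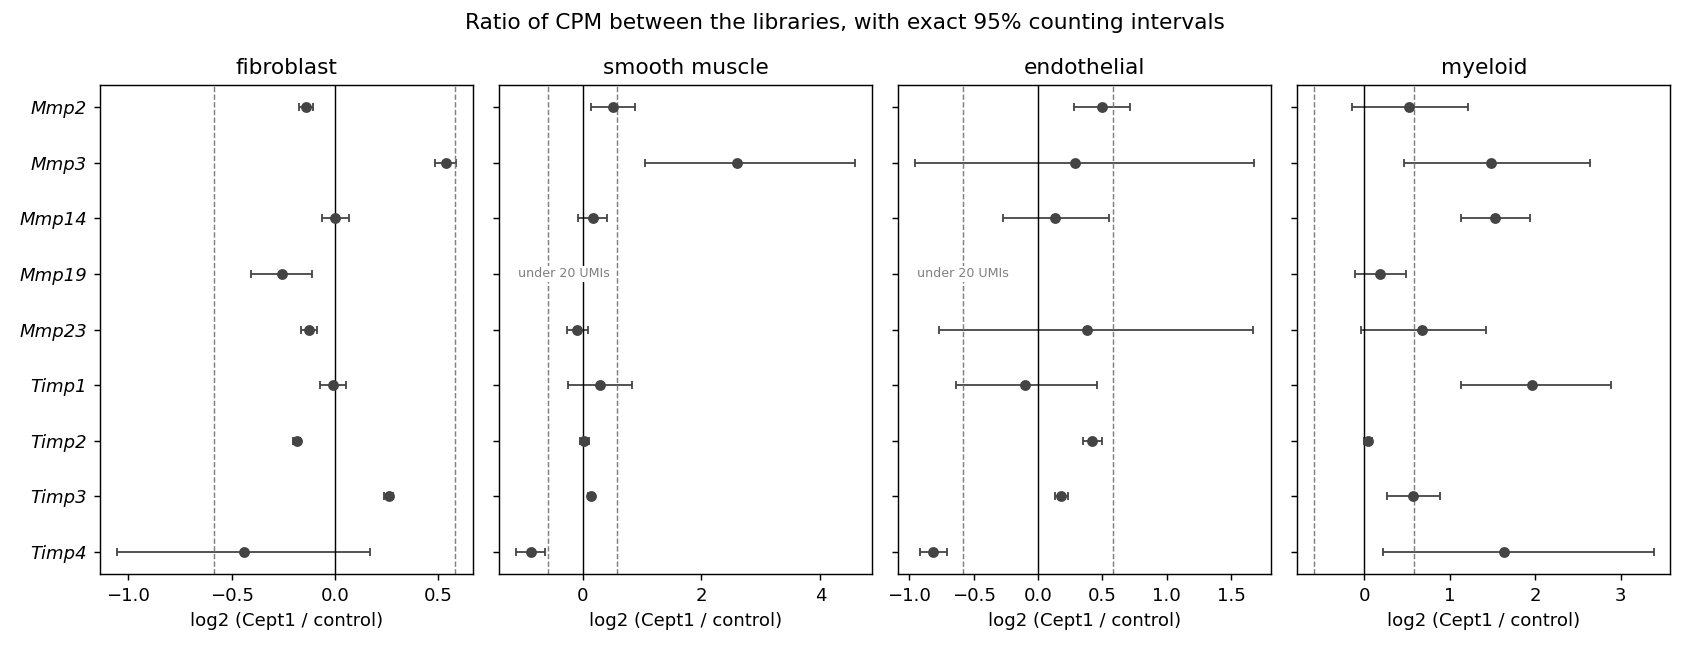
Log2 ratio of CPM (Cept1 library over control library) for each gene in the 4 classes; bars are exact 95% counting intervals, the solid line is 0 and dashed lines mark 1.5-fold, and the horizontal scale differs between panels. All fibroblast points lie between the dashed lines, while Timp4 lies below the lower line in smooth muscle (-0.88) and endothelial cells (-0.81).

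Fibroblasts were divided by markers into Pi16 fibroblasts (1607 and 1124 cells; Pi16 and Dpp4 mark an adventitial, stem-like state), Fmod fibroblasts (999 and 639) and C7 fibroblasts (619 and 479). Mmp3 was lowest in Pi16 fibroblasts, at 215 CPM in the Cept1 library against 101 CPM in the control. There the log2 ratio was 1.09 (0.99 to 1.19), a 2.13-fold difference. In Fmod fibroblasts Mmp3 stood at 511 and 353 CPM, a ratio of 0.53 (0.43 to 0.64). In C7 fibroblasts it stood at 396 and 371 CPM, a ratio of 0.09 (-0.02 to 0.21). The 3 intervals did not overlap, but they treat every UMI as independent and do not cover the spread between cells. Cells with at least 10 Mmp3 UMIs held 72.0% and 71.0% of its UMIs in Pi16 fibroblasts and 68.2% and 73.0% in C7 fibroblasts. Whether the ratios differ between subclasses was not tested, and there was no replicate.

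Mmp3 was concentrated in few cells. Those with at least 10 Mmp3 UMIs made up 4.97% of fibroblasts in the Cept1 library (4.36 to 5.65%) and 4.53% in the control library (3.83 to 5.31%), and they held 68.3% and 69.1% of its UMIs. The highest cell had 154 and 147 UMIs. In Pi16 fibroblasts such cells made up 4.48% (3.52 to 5.61%) and 3.38% (2.40 to 4.61%), and in C7 fibroblasts 6.30% (4.52 to 8.51%) and 7.52% (5.32 to 10.3%). With every cell thinned to 2000 UMIs, 1085 and 742 shallower fibroblasts left out, 20% and 16.3% of fibroblasts had an Mmp3 UMI.

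The other metalloproteinases showed smaller ratios by subclass. Mmp14 was at 94.8 and 72.7 CPM in Fmod fibroblasts (0.38, 0.15 to 0.62), at 186 and 218 CPM in C7 fibroblasts (-0.23, -0.39 to -0.07) and at 177 and 179 CPM in Pi16 fibroblasts (-0.02, -0.10 to 0.07). Its ratio of 0.00 over all fibroblasts thus combined values on both sides of 0. Mmp19 was lower in Pi16 fibroblasts of the Cept1 library, at 27.1 and 34.3 CPM (-0.34, -0.55 to -0.12). Mmp23 stood below 0 in all 3 subclasses, with ratios from -0.22 to -0.10. Among the inhibitors, Timp3 stood at 1283 and 1049.9 CPM in Pi16 fibroblasts (0.29, 0.26 to 0.32), at 2212 and 1979 CPM in Fmod fibroblasts (0.16, 0.11 to 0.21) and at 869.7 and 923 CPM in C7 fibroblasts (-0.09, -0.16 to -0.01). Timp2 was below 0 in all 3, and furthest in C7 fibroblasts with 1726 and 2231 CPM (-0.37, -0.42 to -0.32). Timp1 was lower in Fmod fibroblasts of the Cept1 library, at 179 and 215 CPM (-0.26, -0.41 to -0.11).

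**Figure D3:**
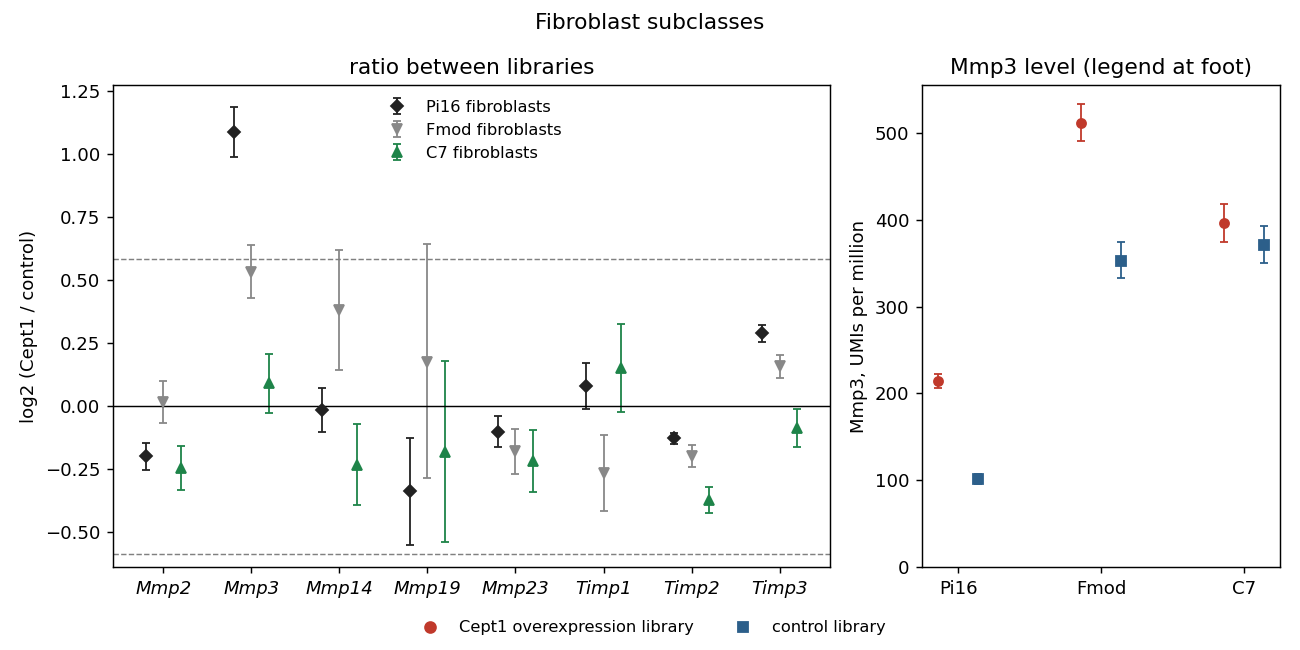
Left, log2 ratio (Cept1 library over control library) of 8 genes in Pi16, Fmod and C7 fibroblasts, with exact 95% counting intervals and dashed lines at 1.5-fold; right, Mmp3 level (CPM) in the same cells, red for the Cept1 library and blue for the control library. The Mmp3 ratio is 1.09 in Pi16, 0.53 in Fmod and 0.09 in C7 fibroblasts, and the other genes lie within 1.5-fold.

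The wider protease network of fibroblasts is set beside the 10.5% of all measured genes that passed 1.5-fold there, or 3.65% at a minimum of 100 UMIs. Of the other metalloproteinase genes, 7 of 17 were measured, 1 higher and 1 lower. Of 17 ADAM and ADAMTS genes, 0 passed 1.5-fold, with a median of -0.04. Among 18 measured genes that activate, inhibit or clear metalloproteinases, 2 were higher and 2 lower. Plau, the urokinase that generates plasmin, stood at 15.1 and 23.9 CPM (-0.66, -0.86 to -0.47), and Thbs1, a matrix glycoprotein that binds metalloproteinases, at 21.9 and 34.3 CPM (-0.64, -0.80 to -0.49). Of 12 genes that tissue dissociation switches on, 0 were higher and 1 was lower, Atf3 at 226 and 353 CPM (-0.65, -0.70 to -0.60). The median of these genes was -0.21, and 10 of them had a ratio below 0. Of 8 inflammatory genes, 3 were lower, among them Cxcl1 (187 and 321 CPM) and Ccl2 (66.5 and 110 CPM), with a median of -0.38. The part of dissociation in the Mmp3 ratio was not tested.

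In smooth muscle, 2 of the 8 measured genes passed 1.5-fold, Mmp3 higher and Timp4 lower. Of all measured genes there, 11.1% passed it in either direction (4.88% higher and 6.18% lower). At a minimum of 100 UMIs, 4.12% of genes passed it, and Timp4 was the only member that did. Timp4 had 212 UMIs in the Cept1 library against 409 in the control, at 39.7 and 72.8 CPM. The control level was 1.83-fold that of the Cept1 library, a log2 ratio of -0.88 (-1.12 to -0.63). A Timp4 UMI was found in 20% and 31.2% of smooth muscle cells, at median depths of 10223.5 and 14181.5 UMIs, against 0.56% and 0.50% of lymphoid cells. With cells thinned to 2000 UMIs, which left out 20 and 28 cells, the shares were 7.60% (5.43 to 10.3%) and 11.1% (8.06 to 14.8%).

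The smooth muscle gate may hold other mural cells, so it was divided, after the values had been seen, by the markers Rgs5, Kcnj8, Abcc9, Higd1b and Ndufa4l2. Cells with at least 2 of these made up 52.3% of the class in the Cept1 library against 65.7% in the control. Detection depends on depth, with medians of 10223.5 and 14181.5 UMIs in this class, and the part of depth in these shares was not tested. In the cells with at least 2 markers Timp4 stood at 26.9 and 70.9 CPM, a ratio of -1.40. In the rest it stood at 56.8 and 79.0 CPM, a ratio of -0.48, so the gene was lower in the Cept1 library in both and passed 1.5-fold in the first. Restricting the class to cells with a mitochondrial share up to 5% and 1000 or more genes gave -0.41, which also lies within 1.5-fold.

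Mmp3 in smooth muscle rested on 23 and 4 UMIs (2.60, 1.05 to 4.59), with 3.85% and 1.03% of cells positive. Mmp2, with 149 and 110 UMIs, had a ratio of 0.51 (0.15 to 0.88), but -0.20 under the stricter gate that asks for 5 own markers and at most 1 of any other list. Fibroblast markers held out of the gate summed to 4232 and 3790.0 CPM in this class. Dcn gave 90.1 and 66.2 CPM of that sum, and Col1a1, Col1a2 and Col3a1 gave the rest. The part of fibroblast RNA in the Mmp2 and Mmp3 ratios was not tested. Timp3 differed by 0.14 (0.09 to 0.19). Timp2 (0.03, -0.05 to 0.11), Mmp23 (-0.09, -0.26 to 0.08), Mmp14 (0.17, -0.07 to 0.42) and Timp1 (0.29, -0.25 to 0.84) did not differ beyond counting error. The median over the 8 genes was 0.16, beside -0.03 over all measured genes.

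The other lists in smooth muscle are set beside the 11.1% of all measured genes that passed 1.5-fold. None of the 5 other metalloproteinase genes measured was higher and 1 was lower. Of 14 ADAM and ADAMTS genes, 2 were higher and 1 lower, with Adamts12 at 27.3 and 14.6 CPM (0.91) and Adamts15 at 18.7 and 33.5 CPM (-0.84). Among 15 regulators, 4 were higher and 0 lower: Thbs1 stood at 107 and 34.2 CPM (1.65, 1.41 to 1.89) and Cd44, a hyaluronan receptor that docks metalloproteinases, at 68.7 and 42.9 CPM (0.68, 0.44 to 0.92). Of 7 inflammatory genes, 3 were higher and 1 lower, with Cxcl1 at 23.8 and 3.92 CPM and Il6 at 20.04 and 7.66 CPM. Of 12 dissociation genes, 1 was higher (Atf3, 0.66) and 2 were lower, Socs3 (-0.91) and Junb (-0.63).

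In endothelial cells, the class in which Cre was driven, 1 of 8 measured genes passed 1.5-fold: Timp4, lower in the Cept1 library. Of all measured genes 15.4% passed it in either direction, 7.86% higher and 7.55% lower. The share was 7.84% of 9174 genes at a minimum of 100 UMIs, where Timp4 was still the only member to pass. Timp4 had 1565 and 1345 UMIs, at 227 and 400 CPM, so the control level was 1.76-fold that of the Cept1 library (-0.81, -0.92 to -0.71). A Timp4 UMI was found in 27.2% and 42.1% of endothelial cells at median depths of 6053 and 6781 UMIs, and after thinning to 2000 UMIs, with 51 and 38 cells left out, in 20.8% (18.2 to 23.5%) and 34.6% (29.9 to 39.6%). Syn2, the gene around Timp4 on the other strand, had 50 and 37 UMIs. Another 3 genes had intervals above 0: Mmp2 with a ratio of 0.50 (0.28 to 0.72), Timp2 with 0.42 (0.35 to 0.50) and Timp3 with 0.18 (0.13 to 0.23). Mmp14 (0.13, -0.27 to 0.55), Timp1 (-0.10, -0.64 to 0.46), Mmp3 (20 and 8 UMIs) and Mmp23 (24 and 9 UMIs) did not differ beyond counting error. The median over the 8 genes was 0.24, beside 0.00 over all measured genes.

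The endothelial class held different mixtures in the libraries. Arterial cells, marked by Gja5, Bmx and Cytl1, made up 62.0% in the Cept1 library against 41.9% in the control. Capillary cells, marked by Gpihbp1, Cd36 and Fabp4, made up 28.0% and 42.4%, and venous cells 6.71% and 11.8%.

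Timp4 was a gene of capillary cells, at 1007 CPM in the Cept1 library against 1063 CPM in the control, where 83.9% and 86.1% of cells had a UMI. Its ratio there was -0.08 (-0.19 to 0.03). In arterial cells it stood at 9.02 and 18.0 CPM, from 43 and 30 UMIs (-1.0, -1.71 to -0.28), and in venous cells 2 and 3 UMIs were counted. The level in the subclass that holds nearly all Timp4 UMIs thus did not differ beyond counting error.

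Mmp2 and Timp2 were highest in arterial cells, and Timp2 was high in venous cells as well. Mmp2 stood at 132 and 131 CPM in arterial cells (0.01, -0.21 to 0.24), at 50.1 and 36.1 CPM in venous cells, and had 11 and 5 UMIs in capillary cells. Timp2 stood at 1006 and 976 CPM in arterial cells (0.04, -0.04 to 0.13) and at 659 and 719 CPM in venous cells (-0.12, -0.38 to 0.13). In capillary cells Timp2 was lower in level but higher in the Cept1 library, at 67.4 and 30.6 CPM (1.14, 0.58 to 1.73), both near the lymphoid 52.7 and 42.7 CPM. With the subclasses weighted equally, the class ratios were 0.15 for Mmp2, 0.01 for Timp2, 0.04 for Timp3 and -0.09 for Timp4.

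Timp3 was found in every endothelial subclass. In arterial cells it stood at 1843 and 1489.8 CPM (0.31, 0.24 to 0.37), in capillary cells at 1548 and 1695 CPM (-0.13, -0.22 to -0.04) and in venous cells at 779 and 885 CPM (-0.18, -0.41 to 0.05). Timp1 in arterial cells had 68 and 41 UMIs, at 14.3 and 24.7 CPM (-0.79, -1.37 to -0.19), where it passed 1.5-fold although the class ratio was near 0.

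**Figure D4:**
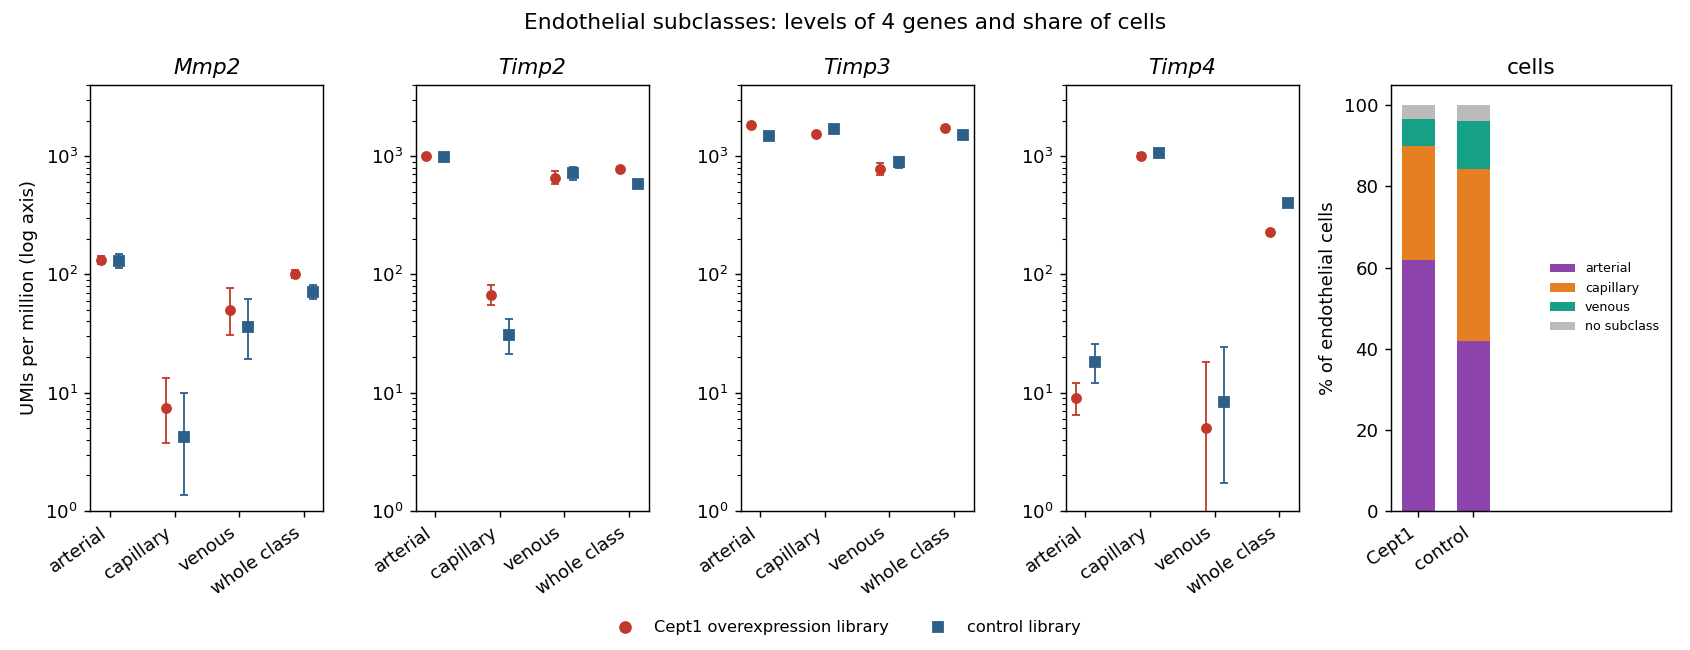
Levels of Mmp2, Timp2, Timp3 and Timp4 (CPM, log axis from 1) in arterial, capillary and venous endothelial cells and in the whole class, red circles for the Cept1 library and blue squares for the control library, with exact 95% Poisson intervals; right, share of endothelial cells in each subclass. Timp4 in capillary cells is 1007 and 1063 CPM while the whole class shows 227 and 400 CPM, and capillary cells are 28.0% and 42.4% of the class.

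Around these genes, 4 other metalloproteinase genes were measured in endothelial cells, 0 higher and 2 lower. Mmp15, a membrane-bound metalloproteinase, stood at 15.0 and 31.8 CPM (-1.09, -1.49 to -0.68), and within capillary cells at 66.7 and 78.1 CPM (-0.23, -0.65 to 0.20). Of 14 ADAM and ADAMTS genes, 2 were higher and 3 lower, with Adamts12 at 29.5 and 17.5 CPM (0.75). Of 16 regulators, 4 were higher and 4 lower. Thbs1 stood at 780 and 316 CPM (1.30, 1.21 to 1.40). Of 12 dissociation genes, 0 were higher and 5 were lower, beside 7.55% lower over all measured genes, with Fos at 347 and 714 CPM and Socs3 at 44.2 and 100.2 CPM. Their median was -0.41, and the others lay within 1.5-fold, among them Ier3 at 0.08. Of 7 inflammatory genes measured, 1 was higher and 2 were lower, with Nfkbia, an inhibitor of NF-kappaB, at 269.7 and 418 CPM (-0.63, -0.73 to -0.53). Smooth muscle markers held out of the gate summed to 637 and 265 CPM in this class, and their part in the results was not tested.

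In myeloid cells, 5 of 9 genes passed 1.5-fold, all higher in the Cept1 library: Mmp3, Mmp14, Mmp23, Timp1 and Timp4. Of all measured genes 14.1% (1921 of 13631) passed it in either direction, 6.15% higher and 7.95% lower. That share depends on the UMI count. At a minimum of 100 UMIs, 6.73% of genes (703 of 10441) passed it, and Mmp14 was the only member that did. Mmp3, Mmp23, Timp1 and Timp4 each had fewer than 100 UMIs over both libraries, a range in which genes passed 1.5-fold more often. The median over the 9 genes was 0.67, beside 0.01 over all measured genes. In lymphoid cells, the class for free RNA, the median over the 4 measured genes was 0.57, with 3 above 0 and 1 below. Fibroblast markers kept out of the gate summed to 368 and 217 CPM in lymphoid cells. The part of free RNA in the myeloid ratios was not tested. Mmp3 (43 and 10 UMIs), Mmp23 (59 and 24 UMIs) and Timp4 (24 and 5 UMIs) stood at 1.55 to 3.81 CPM in the Cept1 library, close to the lymphoid levels. Genes abundant in fibroblasts were present at a low level too: 6 of them summed to 506 and 423 CPM, and Pdgfra, a fibroblast receptor, had 40 and 5 UMIs. Per 1000 UMIs of those 6 genes, Mmp3 had 5.49 and 2.36 UMIs in myeloid cells and 5.21 and 4.0 in fibroblasts, and Mmp23 had 7.53 and 5.65 in myeloid cells and 6.46 and 7.85 in fibroblasts. Timp4 had 3.06 and 1.18 in myeloid cells, 0.027 and 0.041 in fibroblasts and 1.68 and 2.01 in lymphoid cells. Mmp14 had 36.4 and 15.1 in myeloid cells and 2.51 and 2.79 in fibroblasts, and Timp1 had 10.7 and 3.30 in myeloid cells and 2.88 and 3.23 in fibroblasts. On this scale Mmp14, Timp1 and Timp4 stood above the fibroblast value in both libraries, Timp1 only narrowly in the control. Timp4 was hardly found in fibroblasts, and its control myeloid value lay below the lymphoid one.

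Mmp14 had 285 UMIs in the Cept1 library against 64 in the control, at 18.4 and 6.38 CPM, a ratio of 1.53 (1.13 to 1.94). A UMI was found in 6.47% and 3.06% of myeloid cells, against 1.11% and 0.90% of lymphoid cells. Median depth was 7900 and 10032.5 UMIs, and after thinning to 2000 UMIs, with 43 and 46 cells left out, the shares were 2.49% (1.82 to 3.33%) and 0.81% (0.32 to 1.65%). Timp1 had 84 and 14 UMIs, a ratio of 1.96 (1.13 to 2.89), with 2.27% and 1.42% of cells positive.

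Cells with a UMI of Arg1, the arginase of alternatively activated macrophages, were set aside after the values had been seen. They numbered 66 (3.65%) in the Cept1 library against 3 (0.33%) in the control. They held 174 of the 285 Mmp14 UMIs in the Cept1 library and 6 of the 64 in the control library, and 38 of the 84 and 0 of the 14 Timp1 UMIs. Without them Mmp14 stood at 7.52 and 5.82 CPM, a ratio of 0.37 (-0.10 to 0.85), within 1.5-fold. Timp1 stood at 3.12 and 1.40 CPM without them, a ratio of 1.15, and Mmp19 at 15.7 and 15.0 CPM.

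By subclass, Mmp14 stood at 5.54 and 2.98 CPM in resident macrophages (0.89, 0.13 to 1.72), at 70.0 and 32.0 CPM in inflammatory macrophages (1.13, 0.61 to 1.68) and at 44 and 1 UMIs in monocytes. Mmp19 stood on opposite sides of 0, at 10.6 and 16.02 CPM in resident macrophages (-0.60, -1.0 to -0.21) and at 57.8 and 19.98 CPM in inflammatory macrophages (1.53, 0.90 to 2.22). Over the class its ratio was 0.19 (-0.10 to 0.49). A single cell of the Cept1 library held 50 of the 266 Mmp19 UMIs. Timp1 in inflammatory macrophages rested on 30 and 1 UMIs (4.32, 1.73 to 9.67). The Arg1 cells were not set aside in these subclass values. Inflammatory macrophages held 490 and 1 Arg1 UMIs, monocytes 212 and 0, and resident macrophages 327 and 12. The part of Arg1 cells in the subclass ratios was not tested.

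Timp2 was found in 87.1% and 81.9% of myeloid cells, against 24.2% and 22.4% of lymphoid cells. It stood at 757 and 796 CPM in resident macrophages (-0.07, -0.12 to -0.02), at 235 and 340.4 CPM in inflammatory macrophages (-0.53, -0.73 to -0.34) and at 108 and 54.4 CPM in monocytes (0.98, 0.28 to 1.73). Its level in resident macrophages was above that in inflammatory macrophages in both libraries. Over the class the ratio was 0.04. Timp3, with 291 and 127 UMIs and a ratio of 0.57 (0.26 to 0.88), and Mmp2, with 62 and 28 UMIs, stayed near the lymphoid level.

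**Figure D5:**
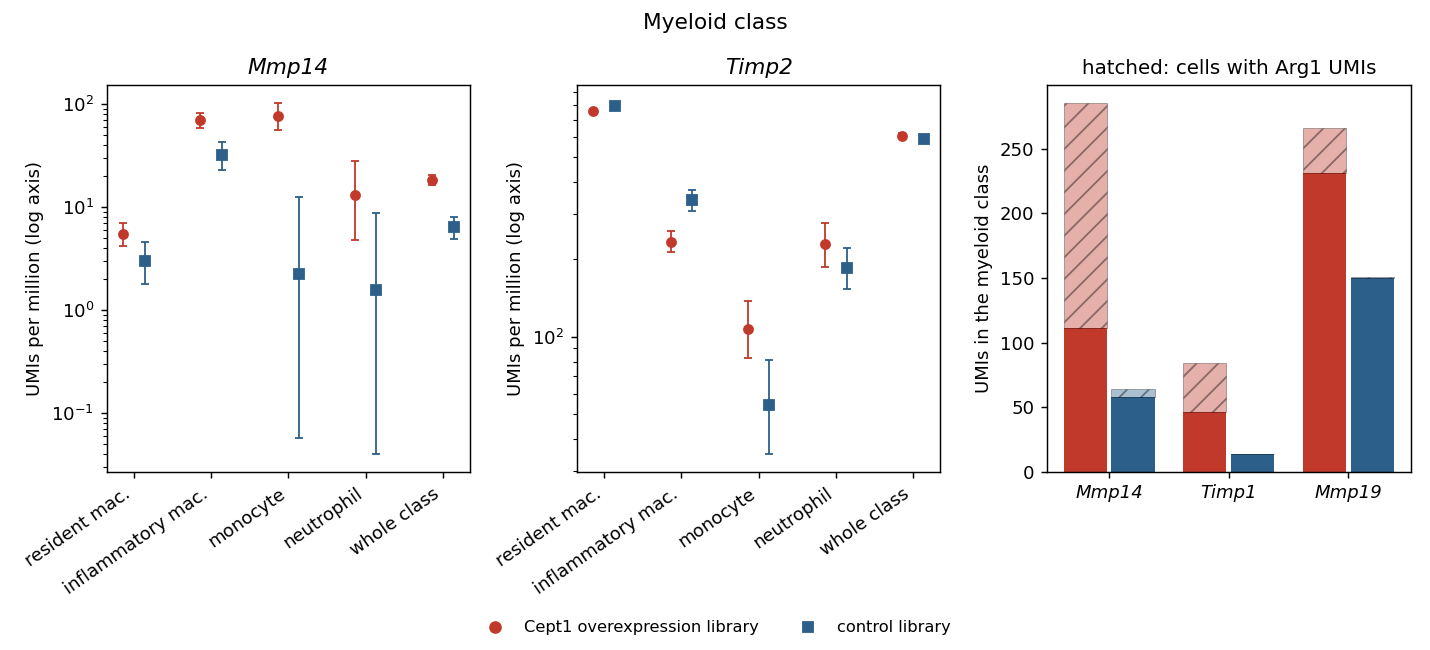
Left and centre, levels of Mmp14 and Timp2 (CPM, log axes with different ranges) in myeloid subclasses and the whole class, red for the Cept1 library and blue for the control library, with exact 95% Poisson intervals; right, myeloid UMIs of 3 genes, with the UMIs from cells holding Arg1 hatched. Of the 285 Mmp14 UMIs in the Cept1 library, 174 come from Arg1 cells, and Timp2 is highest in resident macrophages.

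Of 7 other metalloproteinase genes measured in myeloid cells, 1 was higher and 3 lower. Mmp12, the macrophage elastase, stood at 82.4 and 37.3 CPM (1.14, 0.98 to 1.31), with 250 and 7 UMIs in resident macrophages and 936 and 357 in inflammatory macrophages. Mmp8, the neutrophil collagenase, stood at 24.1 and 139 CPM (-2.52, -2.69 to -2.36), and at 716 and 2125 CPM within neutrophils, which made up 5.04% and 8.21% of the class, and Mmp25, also of neutrophils, at 4.45 and 10.5 CPM (-1.23). Of 12 ADAM and ADAMTS genes, 1 was higher and 1 lower, Adam8 being at 27.0 and 50.8 CPM (-0.91). Of 15 regulators, 1 was higher and 3 lower: Ctsk, a collagen-cutting cathepsin, stood at 5.23 and 2.39 CPM (1.13), Thbs1 at 53.0 and 154 CPM (-1.54) and Plaur, the urokinase receptor, at 123 and 221 CPM (-0.84). None of 12 dissociation genes passed 1.5-fold, and of 8 inflammatory genes Il6 was lower (-1.08).

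The balance of the genes was taken as the UMIs of the 4 inhibitors over those of the 5 metalloproteinases, compared between libraries within a class only. It was 2.72 and 2.78 in fibroblasts, a log2 difference of -0.03, and 9.77 and 9.90 in smooth muscle, a difference of -0.02. In endothelial cells it was 20.9 and 25.3 (-0.27). Their subclasses stood on both sides of 0, with 17.6 and 14.9 in arterial cells (0.24), from 780 and 280 metalloproteinase UMIs. In capillary cells it was 85.9 and 172.9 (-1.01), from only 45 and 19 such UMIs. In venous cells it was 14.9 and 25.4 (-0.77), from only 39 and 23. No interval was computed for the subclass ratios. In myeloid cells it was 13.7 and 21.9 (-0.67), with 30.01 and 33.8 in resident macrophages (-0.17) and 1.93 and 5.56 in inflammatory macrophages (-1.52). The myeloid difference was -0.21 without the Arg1 cells, which were kept in the subclass values. The ratio counts RNA molecules, not protein, and it leaves out the other metalloproteinase genes. In myeloid cells those others summed to 411 and 513 CPM, against 46.2 and 27.6 CPM for the 5 members. In endothelial cells the others summed to 71.6 and 84.1 CPM, against 131 and 99.6 CPM for the members. A balance over all metalloproteinase genes was not computed.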

How the data were processed

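Per the file headers, the deposited values are UMI counts per gene and cell barcode, made with Cell Ranger 7.2.0. They are whole numbers with no normalization. The submitters' processing notes also name Seurat and mm10; intron counting and strand use were details not given in the sources used here. Cells with 500 or more genes and a mitochondrial share up to 10% were kept (Python 3.11.15, scipy 1.17.1, numpy 2.4.6). No doublet caller was applied in the main values: the gate on other lists' markers was relied on, and 25 and 8 gated cells had a Scrublet score above 0.25 (scanpy 1.11.5). A subclass was the marker list with the most detected genes, at least 2, with no tie. Counts were summed per class and library. Intervals are Clopper-Pearson for ratios and shares and Poisson for levels, and the ratio code was tested on simulated data. With 1 library per group no test was possible, and cells were not used as replicates.

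The members, marker lists and gene lists were chosen with earlier results of these data known. The 9 members are always named. From each other list, the 2 highest and 2 lowest ratios per class among genes with at least 100 UMIs were picked, and values are given for those past 1.5-fold, except a regulator in endothelial cells that is counted but not reported here; likeness of profiles used genes with at least 200 UMIs, and the 3 closest were picked. The list of genes abundant in fibroblasts was Dcn, Gsn, Col1a1, Col1a2, Col3a1 and Mgp; 1 of these, Col1a2, passed 1.5-fold in endothelial cells (0.59) and none in the other classes. Alternatives varied the gate, cell filter, scaling (TMM with edgeR 4.0.16 in R 4.3.3, and median of ratios), weighting, thinning and UMI minimum.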

Additional observations from a re-analysis of the deposited data

Results flagged for a closer look

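For 3 genes the log2 ratio between the libraries had opposite signs in different classes, with counting intervals that excluded 0 on both sides; each rests on 1 library per group, and the difference between classes was not tested. Mmp2 was at -0.14 in fibroblasts, 0.51 in smooth muscle and 0.50 in endothelial cells; the smooth muscle ratio was -0.20 with the stricter gate, and the endothelial ratio was 0.01 in arterial cells and 0.15 with subclasses weighted equally. Timp2 was at -0.18 in fibroblasts and 0.42 in endothelial cells, where it was 0.04 in arterial cells, -0.12 in venous cells, 1.14 in capillary cells and 0.01 with subclasses weighted equally. Timp4 was at -0.88 in smooth muscle and -0.81 in endothelial cells (-0.08 in capillary cells and -0.09 with subclasses weighted equally), and at 1.64 in myeloid cells, where it had 24 and 5 UMIs.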

How the results depend on the processing

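For single genes, 34 ratios were recomputed under the alternatives, giving 382 values; 316 moved by less than the counting interval of the main ratio and 66 by more, and no ratio past 1.5-fold changed sign. In fibroblasts the count of genes past 1.5-fold was 0 and became 1 with the stricter gate (Mmp3, 0.62), 1 with the filter set at 200 genes and 20% mitochondrial UMIs (Timp4, -1.13), and 1 with every cell weighted equally (Timp4, -1.14). Over all settings the Mmp3 ratio in fibroblasts ranged from 0.32 to 0.62, so it moved down as well as up. In smooth muscle it was 2 and became 1 with the stricter gate (Timp4), 0 with the filter set at 1000 genes and 5% mitochondrial UMIs, 1 without cells with mural markers (Mmp2, 0.69, which is not among the original 2; Timp4 was then at -0.48 and Mmp3 had 10 and 2 UMIs) and 1 at a minimum of 100 UMIs (Timp4), where 4.12% of genes passed. In endothelial cells it was 1 and became 3 with the stricter gate (Timp4, Mmp2 and Mmp14), 3 with the looser gate (Timp4, Mmp3 and Mmp23) and 2 with no UMI minimum. With subclasses weighted equally Timp4 was at -0.09 and did not pass. Mmp23, with 24 and 9 UMIs in this class, ranged from -0.60 to 1.59 over the settings. In myeloid cells it was 5 and became 1 (Mmp14) at a minimum of 100 UMIs, where 6.73% of genes passed. Without Arg1 cells the members that passed changed: Mmp14 did not pass (0.37), and Timp3 did (0.61, from 282 and 125 UMIs). The log2 difference in inhibitor to metalloproteinase UMIs was -0.03 in fibroblasts and became 0.021 with the looser gate, -0.064 with cells weighted equally and -0.066 with subclasses weighted equally. In smooth muscle it was -0.02 and became 0.21 with the filter at 1000 genes and 5% and -0.17 with thinned cells. In endothelial cells it was -0.27 and became -0.63 with the stricter gate. In myeloid cells it was -0.67 and became -0.44 with cells weighted equally, -0.45 with thinned cells, -1.42 with subclasses weighted equally and -0.21 without Arg1 cells. Beyond fewer cells or genes entering, the cause was not tested. Leaving out mural-marker cells, Arg1 cells or the top cell was chosen after seeing the data. No paired analysis was possible because each group held 1 library. Depth limits Mmp3, Mmp23 and Timp4 in myeloid cells and Mmp3 in smooth muscle, where levels lie near that of free RNA.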
